A study of Mus musculus with 8 samples.

Results

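Kap, Fam167a and Gm6300 are 3 genes whose transcript counts lay far below the controls in every kidney with a conditional knockout of Kdm1a. They were picked for that difference from 49315 genes in the deposited count table, and all 3 were among the 18485 genes that passed a filter on low counts. Messenger RNA was sequenced from 8 mouse kidneys, 4 labelled control and 4 labelled conditional knockout, and the question is which genes change when Kdm1a, which encodes a demethylase of histone H3 known as LSD1, is knocked out in the kidney. The labels give the tissue as kidney and the genotype as Control or Conditional Knockout. Strain, age, sex, the floxed allele, the Cre driver and the cells it acts in, and whether each library is a separate animal are not given in the sources used here. Any p value below therefore measures the spread between these libraries, which may be in part technical.

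Kap encodes the kidney androgen-regulated protein, a product of proximal tubule cells of the mouse kidney whose transcription responds to androgens and to other hormones. The proximal tubule reabsorbs most of the filtered water, salt, glucose and amino acids, and its last segment is where many sex-dependent transporters are made. The Kap promoter is a known tool for directing transgenes to proximal tubule cells. Fam167a is a protein-coding gene of little-known function next to Blk, a tyrosine kinase gene of B lymphocytes. Gm6300 is annotated by GENCODE as an unprocessed pseudogene, the kind that arises when a gene is copied together with its introns, and it lies near the amino acid transporter gene Slc7a12.

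The libraries held between 19524945 and 28544511 counts. Levels are given as CPM, counts per 1000000 counts of the library after scaling by trimmed mean of M values (TMM). Kdm1a itself was at 110 to 120 CPM in the controls and at 90.9 to 95.3 CPM in the knockouts. It fell by 0.27 on the log2 scale (SE 0.054, edgeR adjusted p 0.0194), and which exons the knockout removes is not given in the sources used here. Control replicate 2 and knockout replicates 1 and 4 had high Xist (965 to 1086 CPM) and 0.76 to 2.63 CPM in all of 4 Y-linked genes, against 229 to 289 CPM of the Y-linked genes in the other 5 libraries. Of 12 adrenal genes the summed level reached 2770 CPM for knockout replicate 1 and 383 CPM for knockout replicate 4, against 154 CPM for control replicate 4 and 17.7 to 24.7 CPM in the rest. Of 10 germline genes it was 56.3 CPM in control replicate 2 and 1.97 to 4.6 CPM elsewhere. Kidney markers were present in every library. The endocytic receptor gene Lrp2 was at 18.7 CPM or more, and Six2, a transcription factor of nephron progenitors, was at 96.9 to 219 CPM.

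The 3 genes lie on different chromosomes (GRCm38 coordinates as deposited). Kap (ENSMUSG00000032758) spans chromosome 6, 133849851 to 133853762, minus strand, in 4 exons with 707 bases of exon. Fam167a (ENSMUSG00000035095) spans chromosome 14, 63436394 to 63465498, plus strand, with 4274 bases of exon. Gm6300 (ENSMUSG00000104375) spans chromosome 3, 14363117 to 14377587, plus strand, in 4 exons with 1498 bases. The deposited table listed 0 genes overlapping any of them on either strand. Of all stretches of 50 bases in their GENCODE transcripts, 0 occurred in a transcript of another gene, on either strand.

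Gm6300 resembles the transcript of its neighbour Slc7a12, and the most similar stretch is printed because reads of the pseudogene can only be told from those of the transporter by such differences. The 2 transcripts were identical at 77.7% of 1375 aligned bases, and their longest identical run was 47 bases. Within a stretch of 100 bases that lies inside 1 exon of each gene and is coding in Slc7a12, 10 bases differ, marked in capitals. The stretches are chr3:14363728-14363827 for Gm6300 and chr3:14481309-14481408 for Slc7a12, plus strand, read 5′ to 3′ from GENCODE M21 transcripts.
Gm6300: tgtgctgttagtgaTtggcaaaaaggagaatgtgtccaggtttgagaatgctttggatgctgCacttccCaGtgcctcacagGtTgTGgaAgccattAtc
Slc7a12: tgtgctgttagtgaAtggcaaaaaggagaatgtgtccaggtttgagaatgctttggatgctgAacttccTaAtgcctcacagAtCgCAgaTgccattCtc
The read length and the handling of reads that match several places are not given in the sources used here, and whether reads were assigned to the wrong copy was not tested.

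For Kap the promoter is shown, since its control by hormones and tubule factors is what the gene is known for. The promoter table used here, from RefSeq (GRCm38.p6), was matched for 1 of the 3 genes, Kap. GENCODE starts the longer Kap transcript 95 bases upstream of the RefSeq start, so the first run below, chr6:133853763-133853917 on the minus strand, stops before both starts. The second run, chr6:133853681-133853710, holds the TATA box, whose first base lies 31 bases upstream of the RefSeq start. Capitals mark every match to the letters searched.
Kap upstream: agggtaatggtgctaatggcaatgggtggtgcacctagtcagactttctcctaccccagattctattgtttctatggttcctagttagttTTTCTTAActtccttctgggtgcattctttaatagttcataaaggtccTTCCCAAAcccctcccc
Kap TATA region: gagtacaggatgTATAAAagcccaggagga
Both strands of the 300-base window, 250 bases before and 50 after the RefSeq start, were searched. TATAAA had 1 match, and 13.6% of 32851 windows of the same length held it. TTNNGNAA, the loose core of a C/EBP site, matched 2 times in the Kap window, and 40.7% of windows held it. CAAAGTCCA, the letters of an HNF4 site, matched 0 times, and 0.475% of windows held it. These counts describe letters in this window and nothing about binding.

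Kap was the most abundant of the 3 in controls and the most variable. Its counts were 3353, 548, 1422 and 5952 in control replicates 1 to 4, or 137, 25.4, 57.4 and 271 CPM. In knockout replicates 1 to 4 they were 1, 0, 61 and 8, or 0.0422, 0, 2.11 and 0.288 CPM. Every knockout lay below every control, and the highest knockout, replicate 3, reached 8.31% of the lowest control, replicate 2. That knockout held 87.1% of the Kap counts of its group. In knockout replicate 2, 0 counts were seen, which allows up to 0.154 CPM of raw library size, without TMM scaling (3 counts). Means were 123 ± 109 CPM in controls and 0.61 ± 1.01 CPM in knockouts (SD, n = 4 each). With counts pooled by group, knockouts held 0.574% of the control amount (95% exact Clopper-Pearson interval 0.447% to 0.726%, for counting error only). The fitted log2 fold change was −7.50, the lowest of all 18485 tested genes. Without knockout replicate 3 it was −9.86.

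Fam167a was lower in the knockouts but was not lost. Its counts were 128, 132, 215 and 210 in control replicates 1 to 4, or 5.24, 6.12, 8.68 and 9.54 CPM. In knockout replicates 1 to 4 they were 33, 27, 46 and 47, or 1.39, 1.36, 1.59 and 1.69 CPM. The groups did not overlap, yet transcripts remained in every knockout, and the highest knockout reached 32.2% of the lowest control. Means were 7.4 ± 2.04 CPM in controls and 1.51 ± 0.16 CPM in knockouts (SD, n = 4 each), a ratio of 4.91. Pooled in the same way, knockouts held 20.7% of the control amount (exact interval 17.2% to 24.6%). The fitted log2 fold change of −2.29 placed Fam167a at number 249 from the lowest, and it ran from −2.41 to −2.15 when single libraries were left out.

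Gm6300 was low in controls and near 0 counts in knockouts. Its counts were 25, 30, 63 and 47 in control replicates 1 to 4, or 1.02, 1.39, 2.54 and 2.14 CPM. In the knockouts 1 count was seen in replicate 3 and 0 in the other 3 libraries. Each 0 allows up to 0.110 to 0.154 CPM of raw library size, without TMM scaling (3 counts), depending on the library. Means were 1.77 ± 0.691 CPM and 0.00865 ± 0.0173 CPM (SD, n = 4 each). The pooled knockout level was 0.56% of control, with an exact interval of 0.0141% to 3.17%, since it rests on 1 count against 165. The fitted log2 fold change was −6.88, number 3 from the lowest, and at such counts that value depends on the prior count of the fit. Gm6300 passed the filter on low counts only through the controls.

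The members were chosen for this contrast, so their differences are given as a description and were not tested. The choice used no numeric threshold. The highest knockout as a share of the lowest control was 3.38% for Gm6300, 8.31% for Kap and 32.2% for Fam167a, and the value of Gm6300 rests on 1 count. All 4 knockouts lay below all 4 controls for 9.58% of tested genes, so the lack of overlap alone was common.

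**Figure D1:**
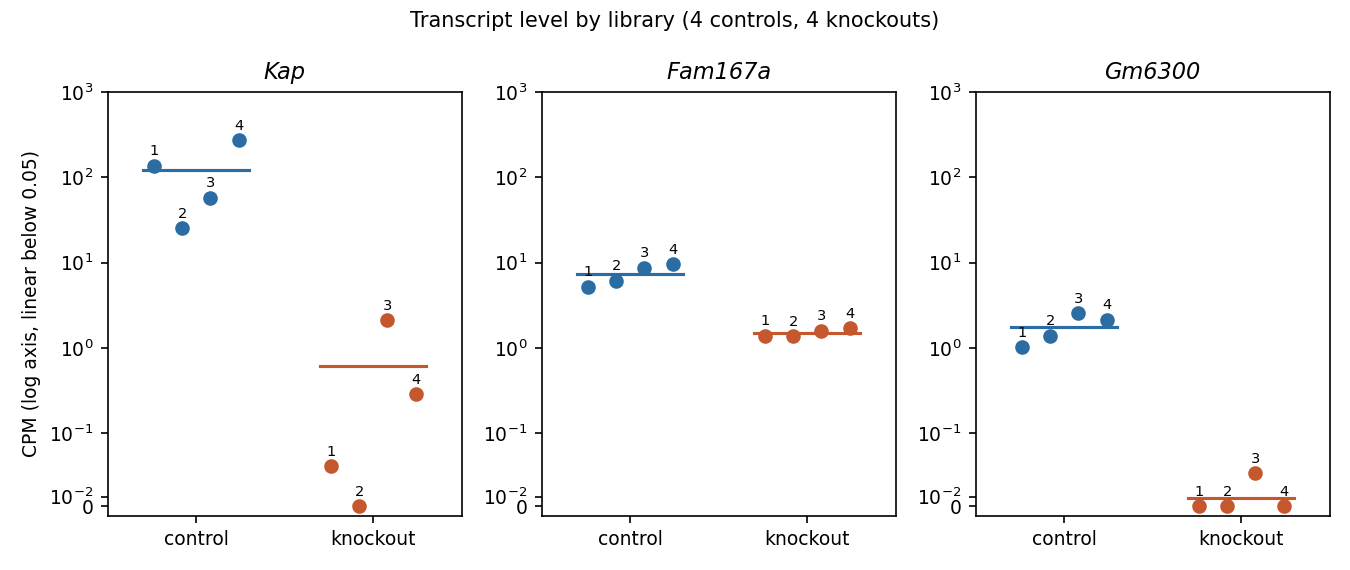
Transcript level of Kap, Fam167a and Gm6300 in CPM (vertical log axis, linear below 0.05) in each of 4 control and 4 knockout libraries, with points numbered by replicate and lines at group means. Kap spans 25.4 to 271 CPM in controls and 0 to 2.11 CPM in knockouts, Fam167a stays at 1.36 CPM or more in knockouts, and Gm6300 has 1 count in knockout replicate 3 and 0 in the others.

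Per length of exon, which allows genes to be compared, Kap stood at 174 CPM per kilobase in controls, Fam167a at 1.73 and Gm6300 at 1.18 (mean levels). In knockouts the mean levels were 0.863, 0.353 and 0.00577 CPM per kilobase. Knockout replicates 1 and 2, at 0.0597 and 0 CPM per kilobase of Kap, had less Kap per length than Fam167a (0.326 and 0.317). In controls the order was Kap above the other 2 genes in each library. Fam167a lay above Gm6300 in all 4 controls, by less than the spread over libraries, since Fam167a ranged from 1.23 to 2.23 and Gm6300 from 0.684 to 1.70.

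The controls themselves differed for Kap by a factor of 10.6 between lowest and highest, against 1.82 for Fam167a and 2.48 for Gm6300. The order of libraries for Kap was control replicates 4, 1, 3, 2 and knockout replicates 3, 4, 1, 2. The same order held in both groups for the summed level of 6 proximal tubule genes (Lrp2, Cubn, Aqp1, Gatm, Miox and Pck1). These summed to 921, 330, 784 and 1210 CPM in control replicates 1 to 4 and to 109, 70.7, 256 and 131 CPM in knockout replicates 1 to 4. Fam167a followed the order 4, 3, 2, 1 in controls and Gm6300 the order 3, 4, 2, 1, so neither shared the order of Kap. The part of proximal tubule content in the differences was not tested. In bulk tissue, fewer cells of a type and less RNA per cell cannot be told apart.

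Set against that proximal sum, the 3 genes parted. Kap was at 149, 76.9, 73.2 and 224 CPM per 1000 CPM of the proximal list in control replicates 1 to 4 and at 0.387, 0, 8.24 and 2.2 in knockout replicates 1 to 4. The groups stayed apart on this scale, with a ratio of means of 48.3, against 201 before scaling. Gm6300 also stayed apart, at 1.11 to 4.21 in controls and 0 to 0.135 in knockouts. Fam167a did not. It was at 5.69, 18.5, 11.1 and 7.89 per 1000 in control replicates 1 to 4 and at 12.8, 19.2, 6.21 and 12.9 in knockout replicates 1 to 4, ranges that overlap almost fully.

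The size of the remaining Kap difference depended on the proximal gene taken as reference, a comparison added after seeing the data. Against each of the 6 genes alone, the ratio of means for Kap was 74.2 (Aqp1), 56.5 (Lrp2), 35.5 (Cubn), 32.4 (Gatm), 13.7 (Pck1) and 7.13 (Miox). Miox, the first enzyme of inositol breakdown, was at 68.4, 7.37, 7.67 and 53.9 CPM in control replicates 1 to 4 and at 0.169, 0.151, 1.11 and 0.791 CPM in knockout replicates 1 to 4, a ratio of means of 61.9. Kap thus differed from Miox far less than from the summed list. Kap per unit of Miox was 2.01, 3.45, 7.48 and 5.02 in control replicates 1 to 4 and 0.25, 0, 1.91 and 0.364 in knockout replicates 1 to 4. The highest knockout, replicate 3, lay just below the lowest control, replicate 1. For Gm6300 the groups overlapped against Miox and did not against the other 5 genes. That overlap rests on 1 count of Gm6300 in knockout replicate 3. For Fam167a the ratio of means, controls over knockouts, ran from 1.21 (Aqp1) to 0.106 (Miox). Fam167a per unit of Miox was 0.0767, 0.83, 1.13 and 0.177 in control replicates 1 to 4. In knockout replicates 1 to 4 it was 8.25, 9, 1.44 and 2.14, so every knockout lay above every control. Against the other 5 genes the Fam167a groups overlapped. Miox itself had 4, 3, 32 and 22 counts in knockout replicates 1 to 4, so ratios to it are imprecise there.

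**Figure D2:**
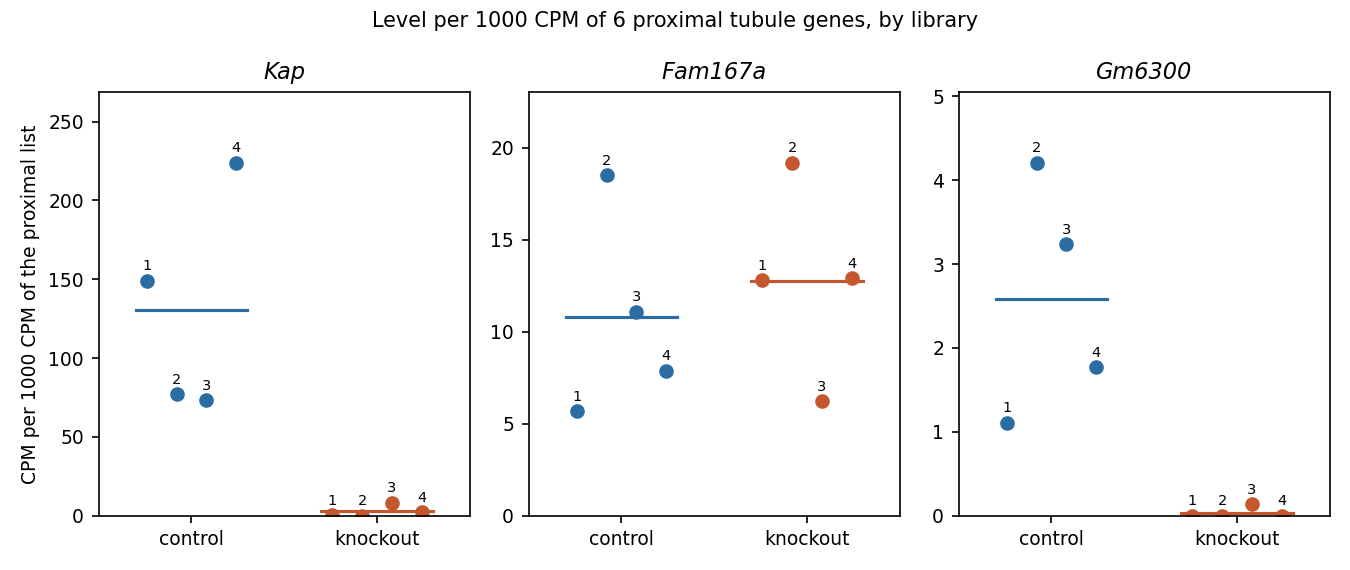
Level of Kap, Fam167a and Gm6300 per 1000 CPM of the summed proximal tubule list (vertical axis, linear, from 0) in each control and knockout library, points numbered by replicate and lines at group means. Kap (73.2 to 224 against 0 to 8.24) and Gm6300 (1.11 to 4.21 against 0 to 0.135) stay apart, and the Fam167a groups overlap.

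The same 6 proximal tubule genes were tested in the fit over all genes (edgeR quasi-likelihood test, Benjamini-Hochberg adjustment over 18485 genes), in which 14.9% of genes were called at an adjusted p under 0.05 and 8.27% were called lower in the knockout. The number of genes called lower ran from 43 without knockout replicate 4 to 3598 without control replicate 2. All 6 proximal genes fell, with a median log2 fold change of −3.05 against 0 for all tested genes. Pck1, the gluconeogenic enzyme, fell by 3.85 on the log2 scale (SE 0.48, edgeR adjusted p 0.00724). Gatm, which makes the creatine precursor, fell by 2.99 (SE 0.45, edgeR adjusted p 0.0110), and Cubn, an endocytic receptor, fell by 3.10 (SE 0.59, edgeR adjusted p 0.0183). Without knockout replicate 4 only Pck1 was called (1 gene, edgeR adjusted p 0.0333). The count was also lower without control replicate 1 (3), control replicate 3 (3), control replicate 4 (4), knockout replicate 1 (3) and knockout replicate 2 (5). By limma-voom it was 5, as Miox was not called (limma-voom adjusted p 0.0823).

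Along the tubule, 4 of 6 genes of the early segments and 3 of 5 tested genes of the last segment fell. In the early segments the median log2 fold change was −1.86. The called genes were Slc5a12, the lactate transporter (−2.97, SE 0.61), Slc5a2, the glucose transporter SGLT2 (−2.86, SE 0.64), Slc34a1, the phosphate transporter (−3.04, SE 0.70) and Slc4a4, the bicarbonate transporter (−0.69, SE 0.16). Their edgeR adjusted p values were 0.0205, 0.0260, 0.0267 and 0.0270. In the last segment Slc7a13, an acidic amino acid transporter, fell by 4.96 (SE 0.75, edgeR adjusted p 0.0111), Slc5a1, the glucose transporter SGLT1, fell by 2.43 (SE 0.46, edgeR adjusted p 0.0180) and Slc22a13, an organic anion transporter, fell by 4.24 (SE 0.91, edgeR adjusted p 0.0230). Cyp7b1, an oxysterol hydroxylase on the same list, rose by 0.67 (SE 0.16, edgeR adjusted p 0.0286), from 14.7, 24.2, 16 and 14.9 CPM to 25.8, 29.3, 28.1 and 28.1 CPM. Of these last-segment and early-segment genes 0 were called without knockout replicate 4. The early count was also 0 without control replicate 1, 3 or 4 or knockout replicate 1, and 2 without knockout replicate 2. The last-segment count, rises included, was 4 with all libraries. It was 2 without control replicate 1 or 4 or knockout replicate 2, and 1 without control replicate 3 or knockout replicate 1.

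Androgens are the best-known input of Kap, so other genes that androgens raise in mouse kidney were counted next. Of 10 listed genes 8 were tested and 5 fell, beside 8.27% of all genes. By edgeR, DESeq2 and limma-voom 0 rose, and 0 did so at an unadjusted p under 0.05. Over the list the median change was −1.85 on the log2 scale. For comparison, 6 of 6 (all segments), 4 of 6 (early) and 3 of 5 tested genes (last) fell on the proximal lists above. Slc7a13 is on both the androgen list and the last-segment list. The part of androgens in these falls was not tested. Cyp2j13, a cytochrome P450 of the kidney, was at 12.2, 6.31, 10.7 and 15.3 CPM in control replicates 1 to 4 and at 0.380, 0.251, 0.657 and 0.288 CPM in knockout replicates 1 to 4. It fell by 4.77 on the log2 scale (SE 0.38, edgeR adjusted p 0.00202) and kept its call whichever of the 8 libraries was left out, at edgeR adjusted p values up to 0.0203. Stretches shared with other genes were sought for Kap, Fam167a and Gm6300 only, so read assignment for Cyp2j13 was not checked. Slc22a6, the organic anion transporter OAT1, was at 95.6, 25.4, 58.4 and 170 CPM in controls and at 2.53, 0.402, 9.51 and 2.34 CPM in knockouts. It fell by 4.51 (SE 0.82, edgeR adjusted p 0.0164). As for Kap, control replicate 2 was the lowest control, replicate 4 the highest and knockout replicate 3 the highest knockout. Cyp2e1, a cytochrome P450 that metabolises ethanol, fell by 3.39 (SE 0.68, edgeR adjusted p 0.0194), and Slc7a13 is described above.

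Odc1, ornithine decarboxylase of polyamine synthesis, fell by only 0.30 (SE 0.071, edgeR adjusted p 0.0292), from 332 to 372 CPM in controls to 255 to 304 CPM in knockouts. Its call held only without control replicate 2 or knockout replicate 3 when single libraries were omitted, and it was lost in the Y-linked libraries alone (0.0626). Gusb, beta-glucuronidase, had a log2 fold change of 0.13 (SE 0.084, edgeR adjusted p 0.306) and Cyp4b1 of −0.15 (SE 0.41, edgeR adjusted p 0.812). Adh1, alcohol dehydrogenase, had 0.67 (SE 0.60, edgeR adjusted p 0.451), with 379 CPM in knockout replicate 1, the library with the most adrenal transcripts, and 38.1 to 123 CPM in the other 7. The part of adrenal tissue in this value was not tested. Without that library its log2 fold change was −0.37. Slco1a1 and Cyp4a12a, hallmarks of the male mouse kidney, were not tested. Slco1a1 had 3 counts in control replicate 1 and in knockout replicate 3 and 0 elsewhere, so it was at or under the floor in every library, those with Y-linked transcripts included. Cyp4a12a had 1 count in control replicate 1 and in knockout replicate 1 and 0 elsewhere. The number called fell to 1, Cyp2j13, without knockout replicate 4. It was 4 without control replicate 4, 3 without control replicate 1, control replicate 3 or knockout replicate 2, and 2 without knockout replicate 1.

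Among 4 genes that are higher in female than in male mouse kidney, 1 was called lower, beside 8.27% of all tested genes. This was Slc7a12, the gene that Gm6300 resembles. Its levels were 7.37, 2.18, 10.3 and 15.1 CPM in control replicates 1 to 4 and 0, 0, 0.45 and 0.144 CPM in knockout replicates 1 to 4. It fell by 5.69 on the log2 scale (SE 0.88, edgeR adjusted p 0.0120), and the call was lost without knockout replicate 4 (edgeR adjusted p 0.0530), which left 0 of the list called. Without control replicate 2, 3 genes of the list were called. Cyp4a14, a fatty acid hydroxylase, had a log2 fold change of −2.41 (edgeR adjusted p 0.0610, or 0.0135 by DESeq2), Abcc3, an export pump, −0.59 (0.155) and Prlr, the prolactin receptor, 0.54 (0.569). With all libraries, Slc7a12 was thus the only gene of the female-biased list called. The part of sex hormones in its fall was not tested.

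Kap is sex-dependent in adult mice, but the age of these kidneys is not given in the sources used here. The nephron progenitor gene Six2 was at 96.9 CPM or more in every library. Whether adult sex differences hold in these kidneys was not tested. The Y-linked and Xist levels cut across genotypes, so values are given within each side of the split. Among the 5 libraries with Y-linked transcripts, Kap was at 137, 57.4 and 271 CPM in the controls and at 0 and 2.11 CPM in the knockouts. Among the 3 with high Xist it was at 25.4 CPM in the control and at 0.0422 and 0.288 CPM in the knockouts. The lowest control thus had high Xist, and it also had the most germline transcripts. Their part in its level was not tested. With only the 5 Y-linked libraries the fitted log2 fold changes were −7.00 for Kap, −2.39 for Fam167a and −6.22 for Gm6300. With a covariate for the Y-linked pattern they were −7.10, −2.24 and −6.76. The other side holds 1 control, so no fit was made there.

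Hormone receptors, steroid reductases and C/EBP factors, which carry or alter hormone signals, were tested next. Of 11, 0 were called lower by edgeR, DESeq2 or limma-voom (1 at an unadjusted p under 0.05) and 1 was called higher, beside 6.61% of all tested genes called higher. The median log2 fold change was 0.04. The number called in this list changed when single libraries were left out. It was 3 without control replicate 2, 2 without knockout replicate 3 and 0 without control replicate 1 or 3 or knockout replicate 2 or 4. Esr1, the estrogen receptor, was at 4.51, 20.3, 5.13 and 5.41 CPM in control replicates 1 to 4 and at 9.33, 16.2, 12.8 and 10.1 CPM in knockout replicates 1 to 4. Its log2 fold change was 0.46 (SE 0.48, edgeR adjusted p 0.514). All 4 knockouts lay above control replicates 1, 3 and 4 and below control replicate 2, the library with high germline genes. Without control replicate 2, Esr1 was called higher (edgeR adjusted p 0.00301), as it was among the 5 Y-linked libraries (0.0157).

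Srd5a2, the enzyme that converts testosterone to the more potent dihydrotestosterone, rose by 2.25 on the log2 scale (SE 0.61, edgeR adjusted p 0.0401). It was at 0.164, 0.232, 0.0807 and 0.545 CPM in controls and at 2.45, 0.753, 0.761 and 0.899 CPM in knockouts, low in each library. The call was lost without control replicate 1 or 3 (edgeR adjusted p 0.109 each) or knockout replicate 1, 2 or 4, with the Y-linked covariate (0.0706) and in the Y-linked libraries alone (0.158). Srd5a1, the second such enzyme, had a log2 fold change of 0.02 (edgeR adjusted p 0.915). The thyroid hormone receptor genes Thra and Thrb had 0.25 (edgeR adjusted p 0.0541, or 0.0203 by DESeq2) and −0.17 (0.478). The growth hormone receptor Ghr had 0.07 (0.610) and the glucocorticoid receptor Nr3c1 0.04 (0.748). For the mineralocorticoid receptor Nr3c2 the value was −0.71 (0.115), and it was called lower without control replicate 2 (0.0476) or knockout replicate 3 (0.0404). The C/EBP factor genes Cebpa, Cebpb and Cebpd, whose loose site letters occur in the Kap window printed above, had −0.16 (0.454), 0.18 (0.705) and 0.01 (0.985).

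Of 4 transcription factors of the proximal tubule 2 fell, beside 8.27% of all tested genes. Hnf4a, a nuclear receptor needed for proximal tubule maturation, was at 110, 63.6, 122 and 163 CPM in control replicates 1 to 4 and at 29.6, 3.31, 35.2 and 27.4 CPM in knockout replicates 1 to 4. It fell by 2.26 on the log2 scale (SE 0.57, edgeR adjusted p 0.0336). Knockout replicate 2, where 0 counts of Kap were seen, was the lowest for Hnf4a. Ppara, a regulator of fatty acid oxidation, fell by 1.49 (SE 0.43, edgeR adjusted p 0.0473). Hnf4g had a log2 fold change of −1.62 (edgeR adjusted p 0.120) and Maf of −0.28 (0.325). With the Y-linked covariate 0 of these were called (edgeR adjusted p 0.0614 for Hnf4a and 0.0867 for Ppara). The count was also 0 without control replicate 1, 3 or 4 or knockout replicate 1 or 4, and 1 without knockout replicate 2.

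**Figure D3:**
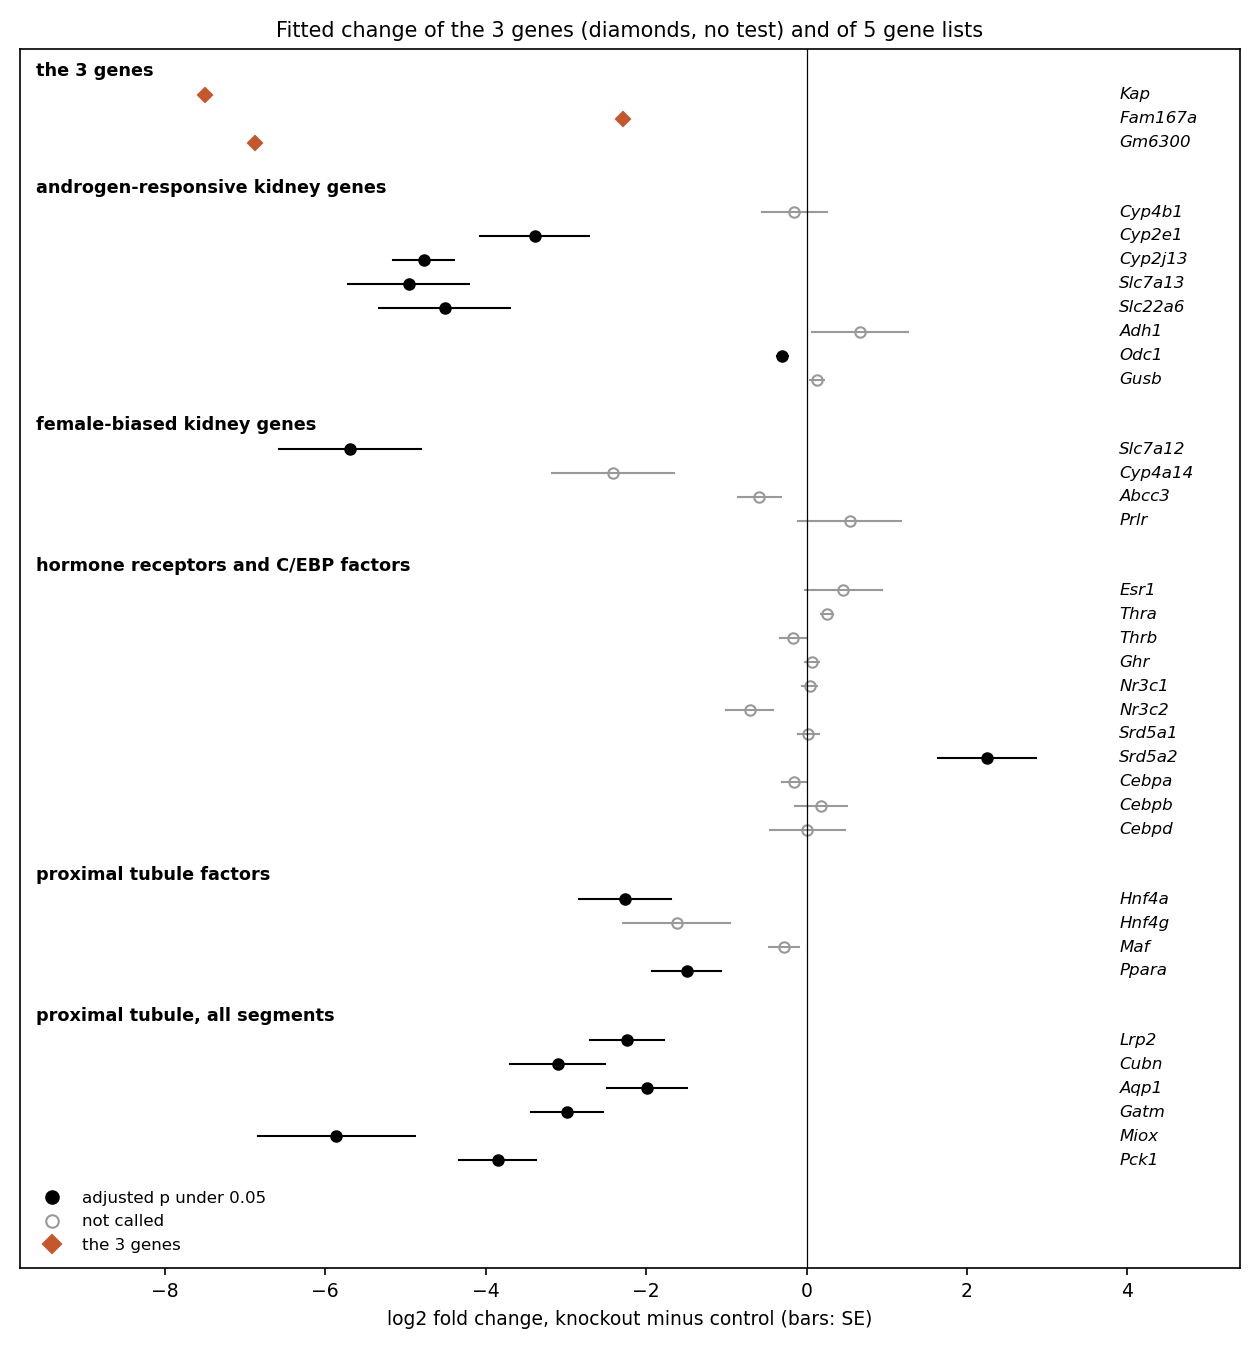
Fitted log2 fold change, knockout minus control (horizontal axis), of the 3 genes as diamonds without a test, and of the tested genes of 5 lists with bars for the SE. Filled black points have an adjusted p under 0.05 (5 androgen-responsive genes, 1 female-biased gene, Srd5a2 upward, 2 proximal tubule factors and all 6 proximal tubule genes).

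For relatives and partners of the 3 genes, 0 of 2 were called by edgeR or limma-voom and 1 by DESeq2, the same number as at an unadjusted p under 0.05. Fam167b, the only paralog of Fam167a on the list, was at 15.6, 13.9, 24.4 and 23.0 CPM in controls and at 15.5, 6.48, 12.6 and 12.4 CPM in knockouts (log2 fold change −0.71, SE 0.27, edgeR adjusted p 0.104). Ppib, which encodes cyclophilin B, a binding partner of the Kap protein, had −0.08 (SE 0.071, edgeR adjusted p 0.446). Blk, which neighbours Fam167a, had at most 0.180 CPM in any library and was not tested.

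Chromosomal neighbours were tested next, since the choice of the 3 genes did not use them. Of the 18 nearest tested genes, 3 on each side of each gene, 2 were called lower and 1 higher, beside 14.9% of all tested genes called in either direction. Not all of the 18 were close. On the lower side of Gm6300, Snx16, Chmp4c and Zfand1 lay 3920, 3930 and 4010 kb away, and Ybx3 lay 2460 kb from Kap. The total was 5 without control replicate 2 and 0 without knockout replicate 4. Around Kap 0 of 6 were called, and 0 of these 6 were called by DESeq2 or limma-voom or had an unadjusted p under 0.05. The nearest tested gene on the higher side was Etv6, an ETS transcription factor gene 182 kb away (log2 fold change 0.03, SE 0.12, edgeR adjusted p 0.893). On the lower side these were Gm45769 (−0.23, adjusted p 0.490) and Smim10l1 (−0.01, adjusted p 0.915), 738 and 739 kb away.

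Around Gm6300 only Slc7a12, 103 kb away, was called. Next to it Lrrcc1, a centrosomal protein gene 156 kb away, had a log2 fold change of 0.19 (edgeR adjusted p 0.228), and the cell cycle factor E2f5, 201 kb away, had −0.06 (0.666). The pseudogene and its look-alike thus lay low together in the knockouts, while the genes beyond did not pass the test.

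Around Fam167a 1 gene fell and 1 rose. Fdft1, squalene synthase of cholesterol synthesis, 259 kb away, fell by 0.69 (SE 0.11, edgeR adjusted p 0.0128, or 0.0530 without knockout replicate 4), from 57.6, 50.5, 70.3 and 60.2 CPM to 38.3, 32.1, 40.4 and 36.9 CPM. Xkr6, of the XK-related membrane protein family, 141 kb away on the other side, rose by 0.63 (SE 0.16, edgeR adjusted p 0.0322), and its call held in 2 of 8 cases when single libraries were omitted (without control replicate 2 and without knockout replicate 3). Mtmr9, a phosphatase family gene and the nearest tested one at 58.1 kb, had −0.38 (SE 0.15, edgeR adjusted p 0.117). It was called lower without control replicate 2 (−0.51, edgeR adjusted p 0.00339) and in the Y-linked libraries alone (0.0386). Gata4, 165 kb away, had 3.85 CPM in control replicate 2 and 0 to 1.15 CPM in the other 7 libraries (log2 fold change −0.27, edgeR adjusted p 0.882). Without control replicate 2 it was called higher, at 3.24 (edgeR adjusted p 0.00574).

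**Figure D4:**
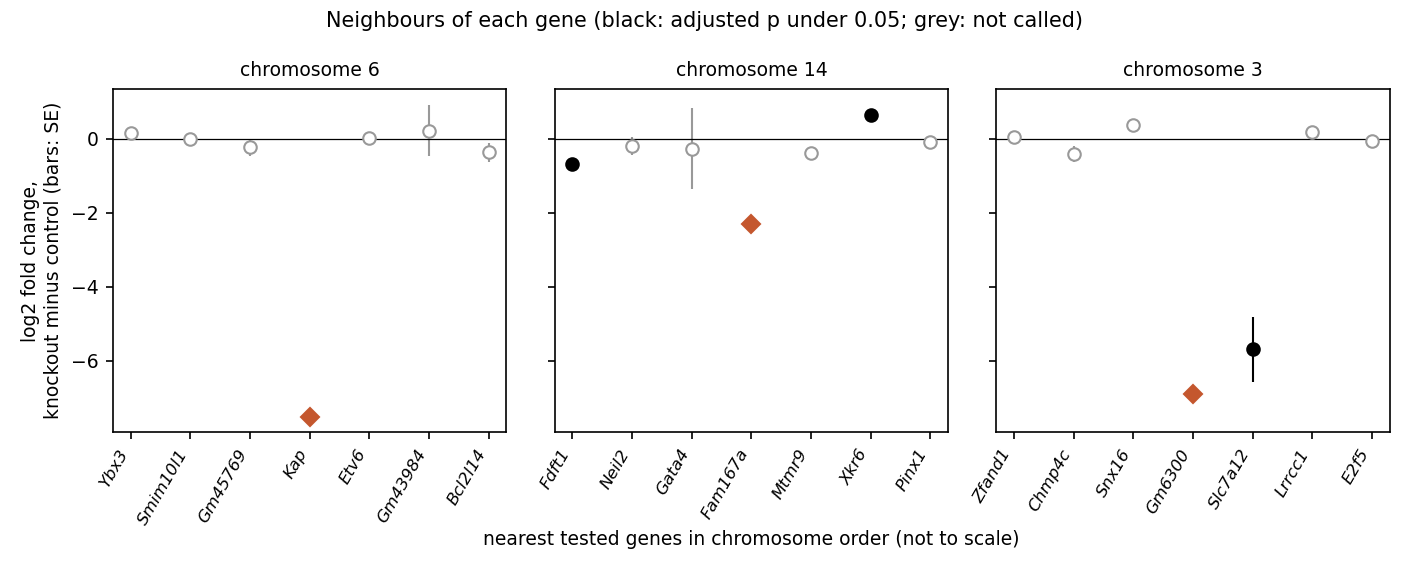
Log2 fold change, knockout minus control (vertical axis, bars for the SE), of the 3 nearest tested genes on each side of Kap, Fam167a and Gm6300, in chromosome order and not to scale. Diamonds are the 3 genes, and filled black points, with an adjusted p under 0.05, are Fdft1, Xkr6 and Slc7a12.

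Finally, the genes most like each of the 3 were sought among 14345 named genes whose mean over libraries reached 1 CPM. Likeness was the root mean square difference of log2 CPM over the 8 libraries after each gene was centred on its own mean, so small values mean alike. Because the pattern itself chose the 3 genes, these matches are a description with no test, and the 8 libraries share whatever differs between the groups. Closest to Kap were Umod and Serpina6 (1.02 each), Ugt3a2 (1.49), Slc22a19 (1.5) and Slc7a12 (1.55). Umod encodes uromodulin of the thick ascending limb, a different segment. It was at 153, 27.6, 241 and 293 CPM in control replicates 1 to 4 and at 0.507, 0.0502, 12.8 and 1.58 CPM in knockout replicates 1 to 4. Umod and Kap shared control replicate 2 as the lowest control, replicate 4 as the highest, and knockout replicate 3 as the highest knockout. Serpina6 encodes corticosteroid-binding globulin, a carrier of steroid hormones in blood. It was at 166, 22.9, 214 and 309 CPM in controls and at 0.253, 0, 16.2 and 0.935 CPM in knockouts.

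Closest to Gm6300 were Cyp2j13 (0.47), Lpo (0.48), Slc22a29 (0.55), Sucnr1 (0.69) and Ugt1a9 (0.75). Lpo encodes lactoperoxidase and Sucnr1 the succinate receptor. Lpo was at 1.47, 1.07, 5.29 and 2.82 CPM in controls and at 0, 0, 0.138 and 0.0719 CPM in knockouts, with control replicate 3 the highest as for Gm6300. Closest to Fam167a were Tmem52b (0.33), S100g (0.34), Gjb2 (0.35), Tfec (0.36) and Zmynd10 (0.37). S100g encodes the calcium-binding protein calbindin-D9k of the distal tubule, and Tfec a basic helix-loop-helix factor related to Mitf. S100g was at 197, 142, 361 and 399 CPM in controls and at 52.3, 35.7, 69.4 and 45.0 CPM in knockouts. All 15 of these matches had every knockout below every control, as did 9.58% of all tested genes. They were picked for likeness to genes with that pattern, so the count of 15 carries no support. Some of them, among these Ugt3a2, the Slc22a genes and Ugt1a9, belong to families of close copies whose counts are uncertain.

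On the same measure Kap and Fam167a differed by 3.33, Kap and Gm6300 by 2.44, and Fam167a and Gm6300 by 1.06. Gm6300 came at number 57 and Fam167a at number 277 of the genes closest to Kap, and Fam167a at number 84 of those closest to Gm6300. In the other direction the ranks were far lower. Counted from Fam167a, Kap came at number 14340 of 14345 and Gm6300 at number 4496. Counted from Gm6300, Kap came at number 12927. The scale adds a prior count of 2, which compresses genes as low as Gm6300, so its distance from genes with larger falls is in part set by that choice.

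**Figure D5:**
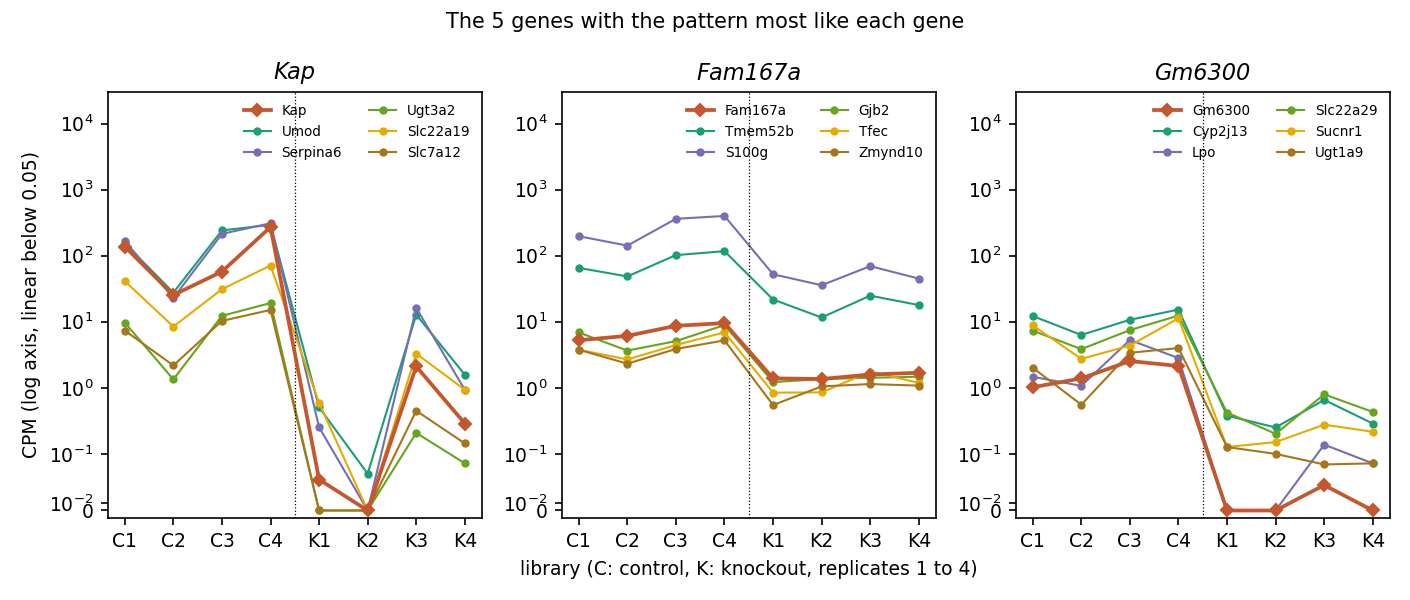
CPM (vertical log axis, linear below 0.05) over control (C) and knockout (K) replicates 1 to 4 for Kap, Fam167a and Gm6300 (diamonds) and the 5 genes most like each. The Kap matches dip at control replicate 2 and rise at knockout replicate 3 (Umod 27.6 and 12.8 CPM), while the Fam167a matches keep a level above 0 in every knockout.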

How the data were processed

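Kidney messenger RNA of 4 control and 4 conditional knockout libraries was analysed. The deposited values are read counts per gene in whole numbers, not normalized, and per the file headers come with each gene's exon coordinates, strand and exon length. The submitters' processing notes name Trimmomatic 0.36, STAR 2.5.2b, featureCounts, Subread 1.5.2, DESeq2 and the build GRCm38; the strand setting is not given in the sources used here. The series table and the tables per library differed in 0 cells. Symbols came from GENCODE M21 (48970 of 49315 IDs).

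Counts were filtered with filterByExpr defaults, scaled by TMM and tested in edgeR 4.0.16 (R 4.3.3) by glmQLFTest, its quasi-likelihood F test, without covariates and with Benjamini-Hochberg adjustment over all tested genes. A call is an adjusted p under 0.05. The SE is the absolute log2 fold change divided by the square root of F. DESeq2 1.42.0 and limma 3.58.1 (voom) served as alternatives. A chi-square test of counts gave at least 12.0 per degree of freedom for every pair of libraries, so none was present more than once. The code was tested on simulated data.

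The 3 genes, the 16 lists (107 genes, all matched) and the tests were chosen with earlier results of these data known. Named genes are the 3 genes, their 3 nearest tested neighbours per side, all members of the hormone, androgen, female-biased, factor and partner lists, up to 3 genes with the smallest adjusted p of each proximal list, and the 5 genes most like each. Cyp7b1, Slc34a1 and Slc4a4 and marker genes beyond these were named after their values were seen. Library totals limit precision: 1 count is 0.0350 to 0.0512 CPM of raw library size. Some genes of the lists are not reported here and were left out of the counts. Lists of other cell types are reported in the closing section.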

Additional observations from a re-analysis of the deposited data

Results flagged for a closer look

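In groups of 4 libraries, a library was singled out where its gap to the nearest other exceeded Dixon's 95% critical share of the group's range. Of 162 groups of named genes 19 did so, and chance gives about 1 in 20. That rate does not apply to Gm6300, Slco1a1 and Cyp4a12a, where 1 to 3 counts in a lone library stood against 0 in the others. Knockout replicate 3 stood above the other knockouts for Kap (2.11 CPM, 61 counts), Gm6300 (0.0346 CPM, 1 count), Aqp1 (125 CPM), Slc22a13 (1.83 CPM), Umod (12.8 CPM), Serpina6 (16.2 CPM) and Slco1a1 (0.104 CPM, 3 counts). Control replicate 2 stood above the other controls for Esr1 (20.3 CPM), Cyp7b1 (24.2 CPM) and Gata4 (3.85 CPM). Knockout replicate 1 stood above the other knockouts for Adh1 (379 CPM), Srd5a2 (2.45 CPM) and Cyp4a12a (0.0422 CPM, 1 count), and below them for Slc7a7 (13.5 CPM) and Zmynd10 (0.549 CPM). Control replicate 4 stood above for Prlr (10.2 CPM) and below for Srd5a1 (13.3 CPM). Control replicate 1 stood above for Slco1a1 (0.123 CPM, 3 counts) and Cyp4a12a (0.041 CPM, 1 count).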

How the results depend on the processing

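Because Kap, Fam167a and Gm6300 were chosen for all knockouts lying far below all controls, the sign of their change carries no support. Their log2 fold changes stayed negative under every alternative run. When single libraries were left out they ran from −9.86 to −6.76, −2.41 to −2.15 and −8.37 to −6.54, and for Gm6300 they were −6.00 with limma-voom and −6.22 in the 5 Y-linked libraries alone, a choice made after seeing the data. A filter at a mean of 1 CPM removed Gm6300. DESeq2 size factors changed no call or direction among 75 named genes. Depth limits Gm6300, which rests on 1 knockout count. Genes called lower numbered 1529, 2509 by DESeq2 and 1010 with the Y-linked covariate, and genes called higher 1222, or 1997 by DESeq2. Leaving out single libraries gave 43 to 3598 lower and 110 to 3486 higher.

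Calls per list over left-out libraries ran from 1 to 5 (androgen-responsive), 0 to 3 (female-biased), 0 to 3 (hormone receptors and C/EBP factors), 0 to 2 (proximal factors), 1 to 6 (proximal, all segments), 0 to 5 (early segments), 0 to 5 (last segment) and 0 to 5 (neighbours). DESeq2 called 2 female-biased and 2 hormone genes. The Y-linked covariate left 0 proximal factors called. The Y-linked libraries alone gave 2 female-biased genes, 2 hormone genes, 0 proximal factors, 2 early-segment genes and 5 neighbours.

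Same-numbered libraries of the 2 groups deviated together weakly or not at all (correlations −0.11, 0.33, 0.23 and −0.06). For 2 of 4 controls the knockout of the same number was the best match. Knockout replicate 3 was the best match of control replicates 1, 3 and 4. The numbers were therefore not taken to pair libraries. With the replicate block 1748 genes were lower and 1481 higher, 3 female-biased and 4 androgen-responsive genes were called, and the fold changes were −7.44 (Kap), −2.26 (Fam167a) and −6.96 (Gm6300).

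Some genes not called with all libraries changed sign. With the Y-linked covariate the log2 fold change was −0.03 for Adh1, −0.17 for Prlr, −0.23 for Cebpd, −0.01 for Etv6 and 0.23 for Gata4. In the Y-linked libraries alone it was −0.73 for Adh1, −0.89 for Prlr, −0.02 for Cebpb, −0.62 for Cebpd, 0.04 for Smim10l1, 3.16 for Gata4 and −0.02 for Zfand1. Gata4 was at 2.0 with limma-voom and 1.15 with the replicate block, and Cebpd at −0.01 with no filter. Over left-out libraries the ranges that crossed 0 were Cyp4b1 −0.53 to 0.10, Adh1 −0.37 to 0.98, Prlr −0.29 to 1.04, Srd5a1 −0.10 to 0.08, Cebpb −0.09 to 0.39, Cebpd −0.26 to 0.57, Smim10l1 −0.04 to 0.02, Etv6 −0.05 to 0.16, Gm43984 −0.15 to 1.04, Gata4 −0.68 to 3.24 and E2f5 −0.12 to 0.02, and Nr3c1 ran from −0.0 to 0.11. The cause of these changes was not tested.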

Other observations

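Other cell types of the kidney were counted in the same fit (edgeR adjusted p under 0.05). Over all tested genes 8.27% were called lower and 6.61% higher. Of 11 genes of other nephron segments 5 fell, with a median log2 fold change of −2.42. That count was 10 without knockout replicate 3, 7 without control replicate 2, 2 without control replicate 1 or 4, 1 without knockout replicate 1 or 2 and 0 when knockout replicate 4 or control replicate 3 was omitted. The 5 genes were Umod (not called by limma-voom, adjusted p 0.0558), the ion channel gene Kcnj1 of the thick ascending limb (−2.82, SE 0.80, edgeR adjusted p 0.0465), the salt transporter gene Slc12a3 (−2.80, SE 0.54, edgeR adjusted p 0.0190) and the calcium channel gene Trpv5 (−2.66, SE 0.49, edgeR adjusted p 0.0172) of the distal tubule, and Nphs1, nephrin of podocytes (−1.92, SE 0.46, edgeR adjusted p 0.0300). Of 4 nephron progenitor genes Cited1 fell by 1.64 (SE 0.35, edgeR adjusted p 0.0225), a call that held only without control replicate 2 or knockout replicate 3 when single libraries were omitted, and Six2 was at 0.47 (edgeR adjusted p 0.127). Of 5 endothelial genes 1 fell (Emcn), with 4 without control replicate 2, 3 without knockout replicate 3 and 0 without any other single library. Of 5 stromal genes 1 rose (Pdgfra, 0.90, SE 0.10, edgeR adjusted p 0.00575) and of 5 tested leukocyte genes 1 rose (Ptprc, 0.93, SE 0.16, edgeR adjusted p 0.0146). Pdgfra was called whichever library was left out, and the stromal count was 4 without control replicate 2 and 2 without knockout replicate 1. The Ptprc call was lost without knockout replicate 4. Of 10 tested adrenal genes 0 were called by edgeR or limma-voom and 4 by DESeq2 (6 at an unadjusted p under 0.05), with a median log2 fold change of 3.76. Without knockout replicate 3 edgeR called 4. Of 2 tested germline genes and 4 Y-linked genes 0 were called by any of the 3 tools, and 0 at an unadjusted p under 0.05.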
